A study of Homo sapiens with 8 samples.

Results

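Genes of the epithelial to mesenchymal transition (EMT), 10 in all, were followed through 8 RNA sequencing libraries of hTERT-RPE1 cells, which are human retinal pigment epithelial cells that telomerase has made immortal. They are the transcription factors ZEB1, ZEB2, SNAI1, SNAI2 and TWIST1 and the mesenchymal markers VIM, CDH2, FN1, SPARC and THY1, taken by symbol from tables of 57884 genes. All 10 were found, each under 1 Ensembl identifier. The set was selected on measured values: their FPKM levels by batch and by genotype label were already known, so those levels are described without a test, and the response to medium is tested. The 4 groups were wildtype or ATF3(-/-) cells, each in complete medium or after 8 h in serine/glycine-free medium, with 2 libraries per group. The sources used here do not say whether the knockout line is 1 clone or which allele it carries. Library number 1 or 2 marks an independent experiment, called a batch below, and the 2 batches were run 1 week apart. All 8 are labelled with the same line, but the sources used here do not say whether both batches used the same stock and knockout clone. SPARC, THY1 and TWIST1 separated the batches most widely, and the levels of VIM and FN1 also did not overlap between them. VIM lay at 809 FPKM or more in batch 1 and at 638 or less in batch 2. By rank among protein-coding genes, however, VIM stood at the 99.5th percentile in the wild-type libraries of both batches. FN1 lay at 36.1 FPKM or less in batch 1 and at 38.3 or more in batch 2. The share of all tested genes that separate the batches was not counted. Batch differences and averages over batches therefore hold only as far as the label does. Levels are in FPKM, fragments per kilobase of transcript scaled to library size, so they can be compared between genes. The batches come in separate tables that were normalized separately, so levels set side by side across batches carry no test.

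In an EMT, epithelial cells loosen their junctions and take on a motile, spindle-shaped form. ZEB and SNAI zinc finger proteins bind E-box sequences and repress epithelial genes such as CDH1 (E-cadherin), and the basic helix-loop-helix factor TWIST1 acts in the same program. VIM (vimentin) is an intermediate filament protein, CDH2 is N-cadherin, FN1 (fibronectin) and SPARC are matrix proteins, and THY1 is a surface glycoprotein of fibroblasts. Retinal pigment epithelial cells are known to gain mesenchymal markers in culture.

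ATF3, the stress-induced factor the genotype label names, was present in every library. In batch 1 it stood at 3.47 FPKM (wild type, complete), 6.46 (wild type, serine/glycine-free), 3.38 and 4.45 (labelled knockout, complete and serine/glycine-free). In batch 2 the same 4 values were 3.65, 18.0, 20.8 and 57.3 FPKM, so ATF3 mRNA in the libraries labelled knockout was above wild type there, and the label is used below only as a label. A value per gene shows neither an edited exon nor the protein, and the ATF3 locus is shared by 2 listed genes. The files give no read depth. The commonest ratio between low values put each library between 0.889 and 1.21 times the depth of the wild-type complete library of its batch. Of 14 retinal pigment epithelial markers, 8 stayed under 1 FPKM in all 8 libraries. OTX2 was listed at 0 in all, and RPE65 did not pass 0.695 FPKM. Others were present: MITF lay between 1.96 and 6.55 FPKM over the 8 libraries. SERPINF1 lay between 3.63 and 8.26 FPKM in batch 1 and between 0.780 and 2.28 in batch 2. LRAT stood at 1.71 and 2.39 FPKM in the batch 2 libraries labelled knockout. BEST1 and PMEL reached at most 1.37 and 1.15 FPKM. PAX6 lay between 0.0197 and 0.231 FPKM in batch 1 and between 5.20 and 12.8 in batch 2. All 5 leukocyte markers were under 1 FPKM in every library, as were 3 of the 4 endothelial markers found, with KDR at 1.52 FPKM once.

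RefSeq start-site windows (GRCh38.p14, 250 bases before to 50 after a start) were on hand for 6 of the 10 genes, 13 windows in all, since ZEB1 has 7 and CDH2 has 2. The E-box searched was CACCTG or its reverse complement CAGGTG. It occurred in 2 windows, both of ZEB1, and in 20.6% of all 35116 windows of the same length. One ZEB1 window held 3 E-boxes, at positions −242, −85 and 34 counted from the start, and 0.64% of all windows hold 3 or more. The AP-1 sequence, TGACTCA or TGAGTCA, a kind of site that ATF3 can bind with JUN proteins, was in 0 of the 13 windows and in 4.9% of all. Other sequences that ATF3 can bind were not counted, among them TGACGTCA, which the FN1 window holds. The stretches before 3 starts are printed, 5′ to 3′, with E-boxes in capitals: the ZEB1 window with most E-boxes, VIM for its low level in the batch 2 libraries labelled knockout, and SPARC for its near absence from batch 2. They are at chr10:31318966-31319215 (plus strand), chr10:17227991-17228240 (plus strand) and chr5:151686916-151687165 (minus strand). A match or its absence describes these letters only.
ZEB1: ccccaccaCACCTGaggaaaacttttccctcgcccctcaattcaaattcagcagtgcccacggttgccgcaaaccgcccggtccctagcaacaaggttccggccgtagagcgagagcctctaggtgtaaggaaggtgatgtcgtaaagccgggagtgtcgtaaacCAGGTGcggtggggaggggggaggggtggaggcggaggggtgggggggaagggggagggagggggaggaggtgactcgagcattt
VIM: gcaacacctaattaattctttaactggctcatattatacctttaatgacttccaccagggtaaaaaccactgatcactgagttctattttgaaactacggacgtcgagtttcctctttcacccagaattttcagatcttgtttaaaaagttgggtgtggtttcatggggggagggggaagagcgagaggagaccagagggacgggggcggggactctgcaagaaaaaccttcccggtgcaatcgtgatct
SPARC: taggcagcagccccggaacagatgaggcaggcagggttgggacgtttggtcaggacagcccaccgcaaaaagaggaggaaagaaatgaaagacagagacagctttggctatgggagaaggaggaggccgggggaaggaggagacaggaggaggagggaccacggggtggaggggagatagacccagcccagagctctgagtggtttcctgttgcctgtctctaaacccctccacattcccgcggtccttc

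Among the transcription factors, ZEB1 and SNAI2 were lower in the batch 2 libraries labelled knockout than in the batch 2 wild type, and TWIST1 was near 0 throughout batch 1. ZEB1 (ENSG00000148516, 31476812 to 31818742 on chromosome 10 of hg19, where 6 listed genes have the same locus) stood in batch 1 wild type at 11.1 FPKM (complete) and 11.6 FPKM (serine/glycine-free), with 13.005 and 18.3 under the knockout label. In batch 2 it stood at 9.97 and 12.03 FPKM in wild type and at 3.08 and 4.26 under the knockout label. The wild-type libraries of the 2 batches thus lay close together, and both batch 2 libraries labelled knockout lay below the other 6. Per FPKM, those libraries were 3.24-fold (complete) and 2.83-fold (serine/glycine-free) below their wild-type partners. In bulk RNA, fewer cells of a type and less RNA per cell cannot be told apart.

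SNAI2, the factor also called SLUG (ENSG00000019549, chromosome 8, 49830249 to 49834299), had a different high group. It stood at 4.77, 4.52, 5.20 and 8.58 FPKM in batch 1, in the same order of groups, and at 15.5, 21.5, 4.58 and 6.90 in batch 2. Only the wild-type libraries of batch 2 were above 10 FPKM, and the batch 2 libraries labelled knockout lay inside the batch 1 range. The folds between labels in batch 2 were 3.38 in complete and 3.12 in serine/glycine-free medium.

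TWIST1 (ENSG00000122691, chromosome 7, 19060614 to 19157295, shared by 2 listed genes) was listed at 0 in 3 libraries of batch 1 and at 0.153 FPKM in wild-type serine/glycine-free medium. Its batch 2 values were 12.8 and 12.6 FPKM in wild type and 7.07 and 5.39 under the knockout label. The batches did not overlap, and within batch 2 the labels did not overlap. SNAI1, the founding SNAIL factor (ENSG00000124216, chromosome 20, 48599536 to 48605423), was low everywhere: 0.663, 1.12, 1.49 and 1.57 FPKM in batch 1 and 0.107, 0, 0.982 and 1.48 in batch 2. It was the 1 member higher under the knockout label in all 4 comparisons of a batch and medium. ZEB2 (ENSG00000169554, chromosome 2, 145141648 to 145282147, shared by 4 listed genes) reached 1 FPKM in only 1 library, the batch 2 wild type with complete medium, at 1.23 FPKM, and was otherwise between 0.109 and 0.970. It is the 1 member that did not pass the filter of 1 FPKM in at least 2 libraries.

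**Figure D1:**
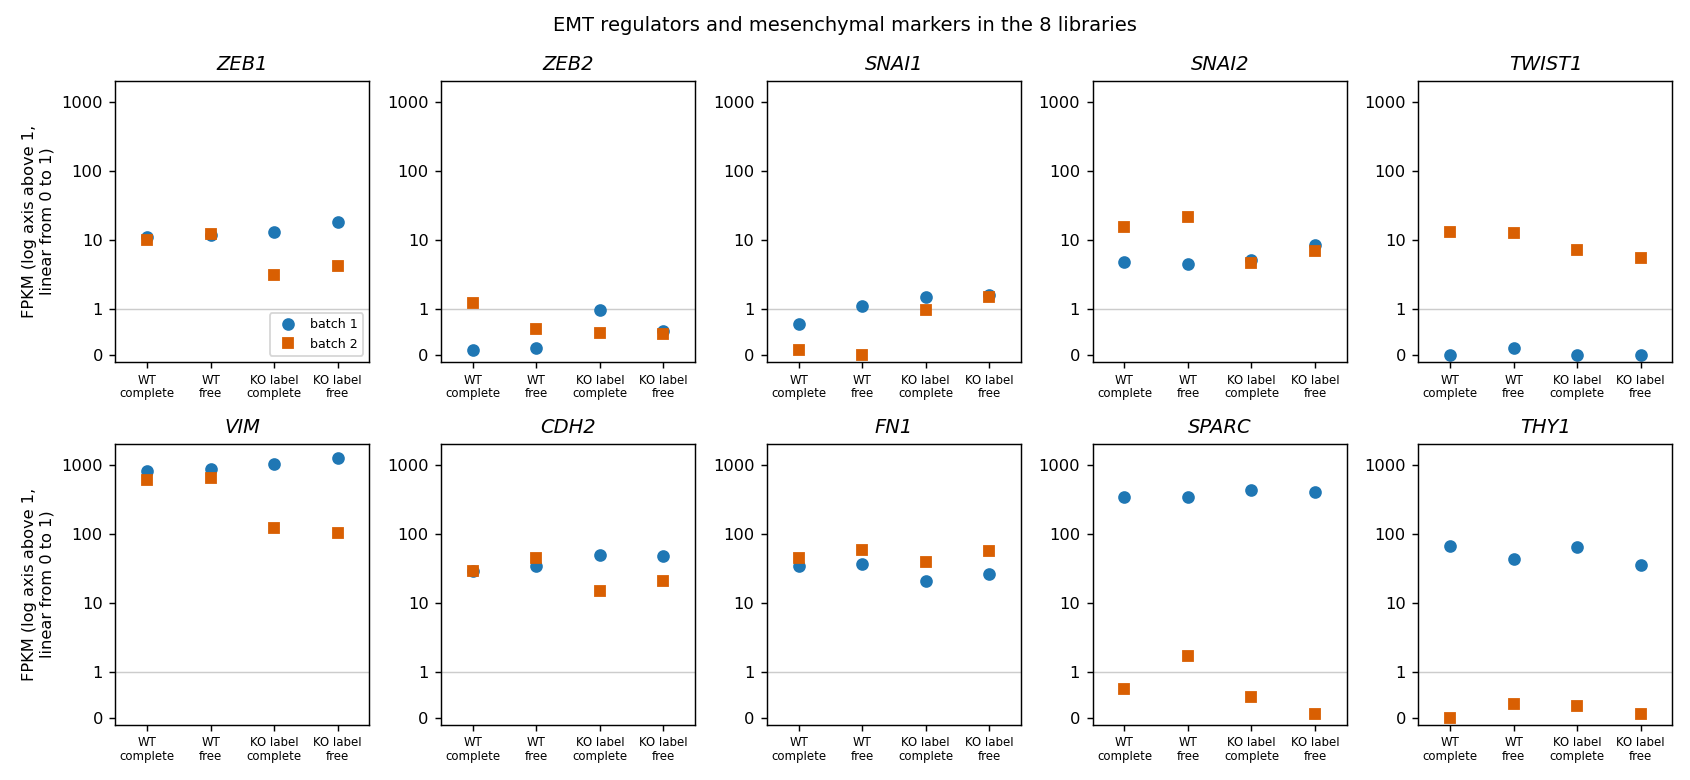
FPKM of each of the 10 genes (vertical axis, logarithmic above 1 and linear from 0 to 1) in the 4 groups, 1 point per library, with circles for batch 1 and squares for batch 2. SPARC and THY1 sit high in batch 1 and near 0 in batch 2, TWIST1 the reverse, and VIM and ZEB1 are low in the batch 2 libraries labelled knockout (KO label).

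VIM was the most abundant member in every library. VIM (ENSG00000026025, chromosome 10, 17256238 to 17279592, shared by 3 listed genes) stood at 809 and 856 FPKM in batch 1 wild type and 1018 and 1247 under the knockout label, in complete and serine/glycine-free medium. In batch 2 it stood at 598 and 638 FPKM in wild type and at 118 and 102 under the knockout label, 5.04-fold and 6.25-fold lower. Against 13080 tested protein-coding genes VIM nevertheless ranked at or above the 95.4th percentile in every library. An antisense gene of the same locus, RP11-124N14.3, went from 56.8 and 63.6 FPKM to 9.14 and 8.81 across the same libraries. Reads of the 2 genes cannot be told apart where they overlap, since no strand setting is given.

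CDH2 (ENSG00000170558, chromosome 18, 25530930 to 25757410, shared by 2 listed genes) was at 28.8 and 34.2 FPKM in batch 1 wild type and 48.5 and 47.0 under the knockout label. In batch 2 it was at 28.7 and 44.3 FPKM in wild type and 14.5 and 20.7 under the knockout label. Labels did not overlap in either batch, and their order was opposite. FN1 (ENSG00000115414, chromosome 2, 216225163 to 216300895) was at 34.5 and 36.1 FPKM in batch 1 wild type, 20.5 and 26.1 under the knockout label, and in batch 2 at 44.5 and 58.7 against 38.3 and 56.7. In batch 2 its labels overlapped, and wild type was only 1.16-fold and 1.03-fold above its partners.

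SPARC and THY1 separated the batches far more widely than the labels. The labels of SPARC did not overlap in either batch, and their order was opposite, while those of THY1 overlapped in both. SPARC (ENSG00000113140, chromosome 5, 151040657 to 151104343, shared by 3 listed genes) lay at 343, 343, 429 and 403 FPKM in batch 1, in the order wild type complete, wild type serine/glycine-free, labelled knockout complete and labelled knockout serine/glycine-free. In batch 2 it lay at 0.620, 1.66, 0.450 and 0.0903 FPKM. Its percentile among protein-coding genes was 98.8 to 99.0 in batch 1 and 5.3 to 19.6 in batch 2. THY1 (ENSG00000154096, chromosome 11, 119252488 to 119397374, shared by 6 listed genes) lay at 66.0, 42.8, 63.1 and 34.9 FPKM in batch 1 and at 0, 0.298, 0.246 and 0.0738 in batch 2. A percentile within a library does not depend on how the 2 tables were scaled, so these gaps do not rest on setting FPKM across tables.

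Markers of other cell types also differed between these libraries. The 8 fibroblast markers summed to 43.1 and 42.6 FPKM in batch 1 wild type, in complete and serine/glycine-free medium, to 109.8 and 89.6 under the knockout label of batch 1, and to between 3.34 and 4.69 in batch 2. Of these 8, 5 were at 1 FPKM or more in all 4 libraries of batch 1 and 0 in all 4 of batch 2. In batch 1, 2 of them, both fibrillar collagens, were past 2-fold higher under the label in both media. COL1A1 stood at 9.61 and 7.72 FPKM in wild type against 42.7 and 23.3 under the label, and COL3A1 at 17.4 and 17.4 against 53.7 and 52.5. FAP went the other way, at 4.33 and 8.17 FPKM in wild type against 2.30 and 1.38. PDGFRB differed little, at 7.81 and 5.83 against 7.24 and 7.23, and COL1A2 was at most 0.271 FPKM. In batch 2, COL3A1 was at most 0.203 FPKM.

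The 7 glandular epithelial markers summed to between 223 and 358 FPKM in batch 1, between 365 and 577 in batch 2 wild type and between 833 and 1078 in the batch 2 libraries labelled knockout, and did not move as a block between batches. KRT19, a simple-epithelium keratin, was at most 0.741 FPKM in batch 1 and at 321 and 216 in batch 2 wild type, and CLDN4 was also higher there. KRT8 went the other way, between 148.6 and 248.8 FPKM in batch 1 and at 55.0 and 34.5 in batch 2 wild type. KRT18 lay between 49.8 and 90.9 FPKM in batch 1 and at 47.2 and 39.7 in batch 2 wild type. CDH1 was at 0.201 to 1.15 FPKM in batch 1, at 0.541 and 1.23 in batch 2 wild type and at 60.0 and 56.2 in the batch 2 libraries labelled knockout, where EPCAM stood at 102 and 98.5. Of these 7, 0 stayed under 1 FPKM in all 8 libraries. The sum of the 6 keratinocyte markers was nearly all SFN, at 156 of 158 FPKM in batch 1 wild type with complete medium. KRT6A, the 1 keratinocyte marker past 2-fold in both media, was listed at 0 in batch 2 wild type and stood at 7.87 and 6.73 FPKM under the label, while KRT5 and KRT14 were listed at 0 in all of batch 2. The part of these cell type markers in the levels of the 10 genes was not tested.

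**Figure D2:**
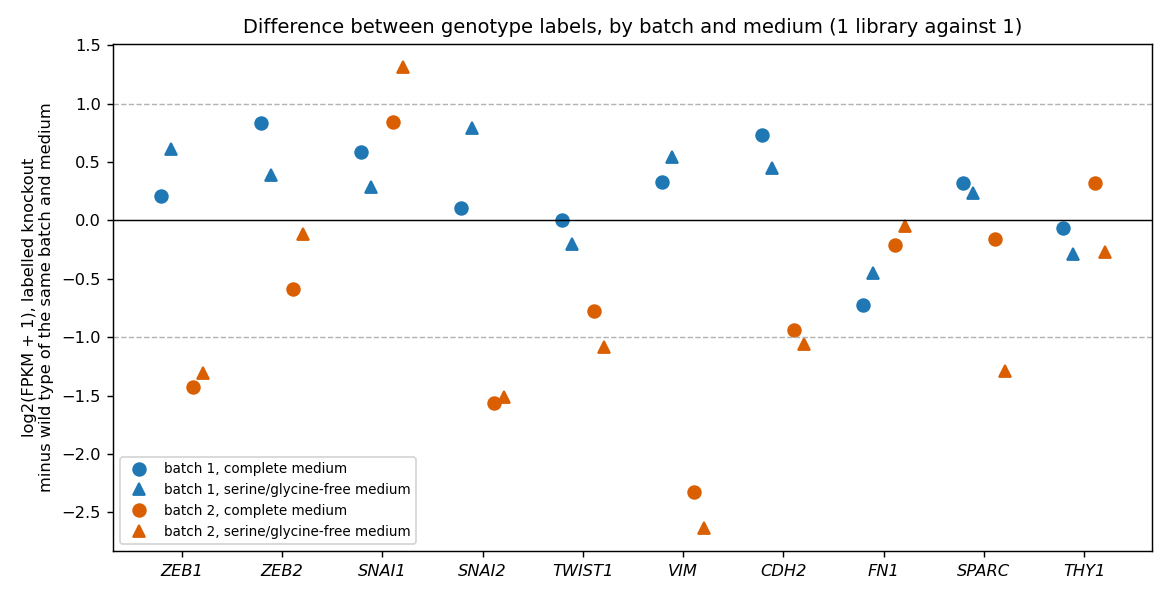
Difference in log2(FPKM + 1) between the library labelled knockout and the wild-type library of the same batch and medium for each gene, with circles for complete and triangles for serine/glycine-free medium and dashed lines at a 2-fold change. VIM, SNAI2 and ZEB1 lie below the lower line in both media of batch 2, and no gene passes either line in batch 1.

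Label differences were then put on the log2(FPKM + 1) scale, where a pseudocount of 1 understates those of low genes. In batch 1, 0 of the 10 genes passed a 2-fold difference in either direction in both media, and across tested genes 1.21% were that much lower and 0.556% that much higher. By single medium the count was also 0, where 4.1% (complete) and 4.38% (serine/glycine-free) of tested genes were lower and 2.97% and 2.7% higher. In batch 2, VIM, ZEB1 and SNAI2 were at least 2-fold lower in both media, and 2.32% of tested genes were. None was that much higher in both, against 3.72% of tested genes. In complete medium 3 were lower and 0 higher, beside 5.21% and 6.78% of tested genes. In serine/glycine-free medium 6 were lower and 1, SNAI1, was higher, beside 5.29% and 6.26%. Averaged over media, the batch 2 differences were −2.48 for VIM, −1.37 for ZEB1 and −1.54 for SNAI2. CDH2 (−0.999), TWIST1 (−0.93) and SPARC (−0.72) were also lower in both media. These 3 passed 2-fold in serine/glycine-free medium only, SPARC from 1.66 FPKM. In all, 6 genes, ZEB1, ZEB2, SNAI2, VIM, CDH2 and SPARC, were higher under the knockout label in both media of batch 1 and lower in both media of batch 2. At any size, 8.27% of tested genes had that pattern, and ZEB2 is not among the tested genes. The reverse pattern held for 0 of the 10 and for 11.3% of tested genes. Because the set was proposed with these states known, these counts are descriptions.

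Other mesenchymal genes, from lists drawn up by role with earlier results of these data known, did not share 1 direction in batch 2. Over all tested genes, 2.32% were at least 2-fold lower and 3.72% higher under the knockout label in both media there. Of 16 tested adhesion and surface genes, 3 were at least 2-fold lower under the knockout label in both media, CDH11, PDGFRA and AXL, and 0 were higher. PDGFRA was low under both labels, at 1.28 and 2.06 FPKM in wild type against 0 and 0.0169. CDH11, cadherin-11, stood at 160 and 131 FPKM in wild type and at 59.0 and 29.7 under the label, and AXL, a receptor tyrosine kinase, at 79.2 and 99.0 against 28.6 and 38.3. Of 20 tested matrix genes, 3 were lower, FBN1 and FBN2 among them, and 3 higher (VCAN, TIMP1 and THBS1). FBN1, the microfibril protein fibrillin-1, stood at 25.6 and 27.4 FPKM against 1.45 and 3.18. VCAN, the proteoglycan versican, went the other way, from 0.882 and 1.13 to 17.3 and 23.7. Of 9 cytoskeletal genes, NES (nestin) was lower, at 18.2 and 9.30 against 3.67 and 1.14, and TAGLN (transgelin) higher, at 1.496 and 1.66 against 4.96 and 16.7.

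Of 12 other tested genes listed with the EMT transcription factors, ID genes among them, TWIST2 and ID3 were lower and FOXC1 higher. TWIST2 was at 1.33 and 1.43 FPKM in batch 2 wild type and listed at 0 under the label. Of 14 genes of TGF-beta and Wnt signalling, 4 were lower (TGFBR2, SMAD3, SMAD4 and GREM1) and 3 higher (TGFB2, BMP4 and WNT5B). GREM1 and WNT5B were low, GREM1 at 1.35 and 3.88 FPKM in wild type against 0 and 0, and WNT5B at 0 and 0 against 1.88 and 3.26. The receptor gene TGFBR2 stood at 27.8 and 42.4 FPKM in wild type and 12.6 and 14.5 under the label, while its ligand gene TGFB2 stood at 7.66 and 21.9 against 51.4 and 106. Of the 16 epithelial counterparts, also listed with earlier results known, 14 were higher and 0 lower, beside 3.72% and 2.32% of tested genes. Among them ESRP1, an epithelial splicing regulator, stood at 0.315 and 0.156 FPKM in wild type against 55.8 and 56.5. The median differences in batch 2 were −0.08 (adhesion), −0.17 (matrix), 0.03 (cytoskeleton), 0.00 (transcription factors), 0.11 (signals) and 2.90 (epithelial), beside 0.00 over all tested genes in each medium. In batch 1, TGFBI was the 1 gene of these lists past 2-fold in both media, lower at 52.1 and 61.7 FPKM against 200.5 and 210.3.

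**Figure D3:**
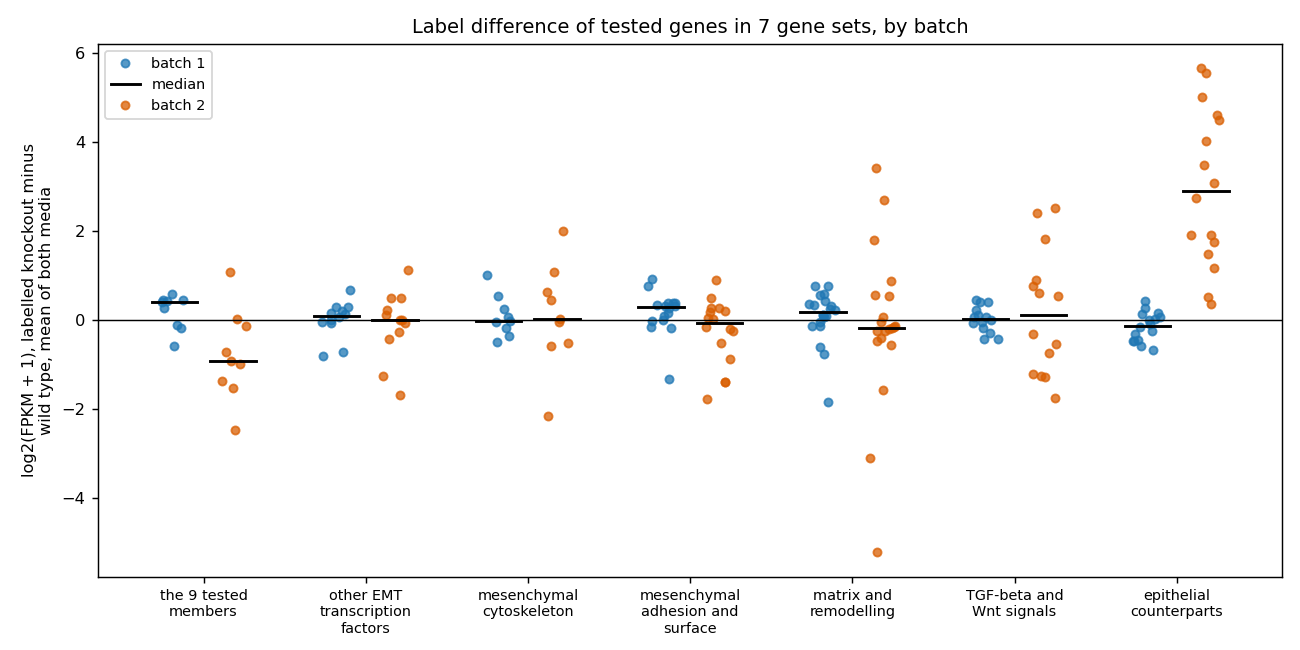
Difference in log2(FPKM + 1) between labels, averaged over both media, for each tested gene (points) of the set (9 tested members) and of 6 lists, with batch 1 and batch 2 side by side and black bars for medians. The epithelial counterparts of batch 2 have a median of 2.90, while the mesenchymal lists spread to both sides of 0. The lists were drawn up with earlier results of these data known.

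Likeness was described over the 8 libraries with each batch centred on its own mean, on the log2(FPKM + 1) scale. Libraries of a batch share their table and its scaling. SNAI2 followed ZEB1 most closely among the members (Pearson r = 0.99), then VIM (0.95), CDH2 (0.91), TWIST1 (0.8) and SPARC (0.75). FN1 (0.14) and THY1 (−0.25) did not follow ZEB1. The batch 2 label differences enter these r values, and the members were chosen with those differences known. SNAI1 had a negative r with ZEB1 (−0.68), from levels of at most 1.57 FPKM. Over the batch 1 libraries SNAI1 rose in the same order as ZEB1, while in batch 2 their label orders were opposite. Outside the set, of 7307 genes at a mean of 10 FPKM or more, THAP4, DDX56, RRP1B, SIM2 and TXNRD1 were most like ZEB1 (r = 0.99 each). Among these SIM2, a basic helix-loop-helix factor, stood at 1.89 to 3.81 FPKM in batch 1, at 38.1 and 55.7 in batch 2 wild type and at 10.4 and 18.3 in the batch 2 libraries labelled knockout. NUBP2, RP11-124N14.3, NNT, UTP18 and COL6A2 were most like VIM (r = 0.99 to 1.00). COL6A2, a collagen VI chain, stood at 335 and 386 FPKM in batch 2 wild type against 143 and 144 under the label.

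After 8 h without serine and glycine no member passed the test, and over the 9 tested members the single pairs differed by −0.84 to 0.72 on the log2 scale. Each serine/glycine-free library was set against the complete-medium library of the same label and batch, giving 4 pairs, in a limma fit over 17994 genes. Of the 9 tested members, 0 were called at an adjusted p under 0.05 in wild type, under the knockout label, averaged over both, or for the difference between labels. Their counts at an unadjusted p under 0.05 were 0, 2, 2 and 0. Over all tested genes, 0.0667%, 0.0278%, 0.128% and 0.0389% were called in these comparisons, so calls were rare for any gene, and 9.54%, 9.69%, 15.4% and 2.82% had an unadjusted p under 0.05. By direction, 0.0389% and 0.0278% were higher and lower in wild type, 0.0222% and 0.00556% under the knockout label, 0.117% and 0.0111% averaged, and 0.0167% and 0.0222% for the difference, beside 0 members each. The median averaged response was 0.14 over the members and 0.02 over all tested genes (log2).

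FN1 and ZEB1 were higher in serine/glycine-free medium in all 4 pairs, as were 14.6% of tested genes. FN1 went from 34.5 to 36.1 and from 44.5 to 58.7 FPKM in wild type, and from 20.5 to 26.1 and from 38.3 to 56.7 under the knockout label. Its averaged log2 fold change was 0.34 ± 0.10 (SE, n = 4 pairs; limma adjusted p = 0.2503). Its 95% interval ran from 0.08 to 0.59. ZEB1 had 0.28 ± 0.11 (adjusted p = 0.335), with 0.15 ± 0.16 in wild type and 0.41 ± 0.16 under the knockout label.

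SNAI2 was higher in 3 of 4 pairs and CDH2 in 3 of 4. SNAI2 had an averaged log2 fold change of 0.38 ± 0.14 (limma adjusted p = 0.316), with 0.19 ± 0.20 in wild type and 0.56 ± 0.20 under the knockout label, and CDH2 had 0.32 ± 0.13 (adjusted p = 0.339). Leaving out 1 library gave 0.25 to 0.51 for SNAI2 and 0.19 to 0.45 for CDH2. The pair that went the other way was batch 1 for both, wild type for SNAI2 (4.77 to 4.52 FPKM) and labelled knockout for CDH2 (48.5 to 47.0). VIM had a response of 0.06 ± 0.11 with an interval of −0.21 to 0.34. THY1 was lower in both pairs of batch 1, at 0.649 and 0.554 times its complete-medium level, and averaged −0.32 ± 0.22 (adjusted p = 0.534), with −0.07 to −0.57 when 1 library was left out. SNAI1 (0.14 ± 0.18, and 0.02 to 0.27 with 1 library left out), SPARC (0.05 ± 0.15) and TWIST1 (−0.04 ± 0.16) had intervals on both sides of 0. So did ZEB1 (−0.012 to 0.575), CDH2 (−0.017 to 0.659) and THY1 (−0.901 to 0.258), while that of SNAI2 ran from 0.009 to 0.749. For SPARC, TWIST1 and THY1, pairs of 1 batch are near 0 FPKM and carry little. Genes at 10 FPKM or more had medians 0.04 to 0.12 higher in serine/glycine-free libraries, and relative to that shift VIM averaged −0.02 in place of 0.06.

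**Figure D4:**
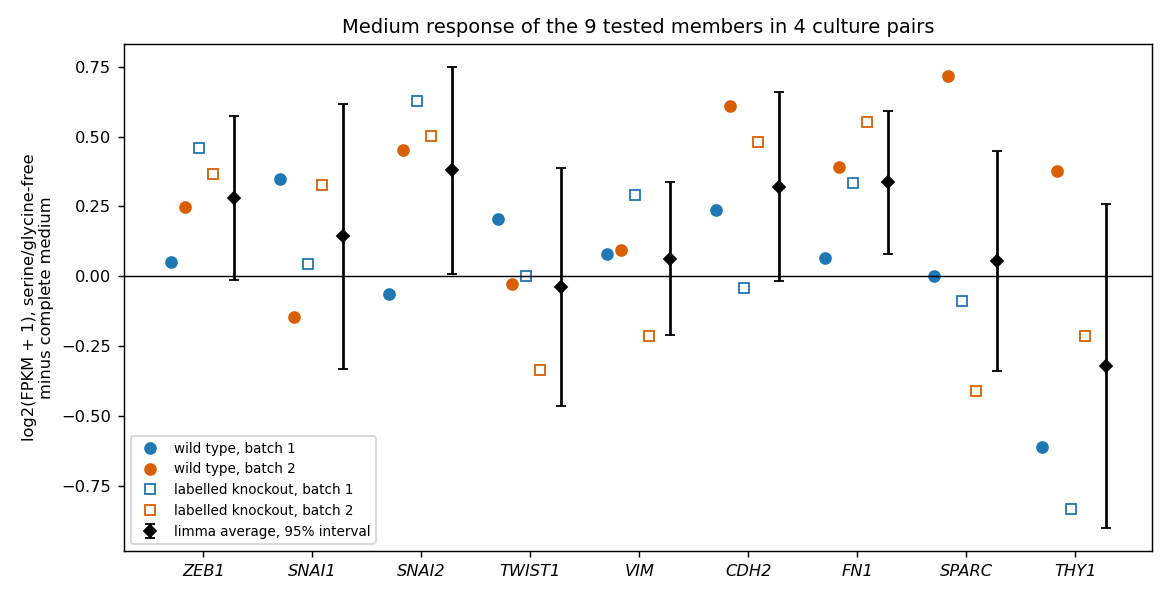
Difference in log2(FPKM + 1) between serine/glycine-free and complete medium for the 9 tested genes in each of 4 culture pairs (coloured points), with the limma average and its 95% interval (black). FN1 and ZEB1 lie above 0 in all 4 pairs, and all 9 adjusted p-values of the average lie between 0.2503 and 0.932.

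None of the tested genes of the 6 lists was called by limma in any of the 4 comparisons. ITGB3, integrin beta 3, had an averaged response of 1.24 ± 0.15 on the log2 scale (adjusted p = 0.108) and was higher in 4 of 4 pairs. TAGLN had 0.80 ± 0.13 (adjusted p = 0.154), made up of 0.24 in wild type and 1.36 under the knockout label. INHBA, the activin A subunit, had 0.75 ± 0.22 (adjusted p = 0.254) and TNC (tenascin C) 0.47 ± 0.10 (adjusted p = 0.190). CLDN4, an epithelial claudin, came nearest to a call at −1.14 ± 0.09 (adjusted p = 0.0504) and was lower in 4 of 4 pairs, from 15.3 to 6.24 and from 135 to 55.5 FPKM in wild type and from 20.97 to 8.60 and from 171 to 90.8 under the label. Among the others that stood lower, NES had −0.71 ± 0.19 (adjusted p = 0.232), CDH11 −0.48 ± 0.12 (adjusted p = 0.217) and SOX9 −0.52 ± 0.14 (adjusted p = 0.223). Median responses of the lists were 0.19 (adhesion), 0.23 (matrix), −0.02 (cytoskeleton), 0.02 (transcription factors), 0.17 (signals) and −0.08 (epithelial).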

How the data were processed

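Total RNA of 8 hTERT-RPE1 cultures was sequenced from Illumina libraries, per the labels' protocols. All were grown in complete medium for 2 days, and the 4 serine/glycine-free cultures were then washed and kept for 8 h in that medium. Each batch has 1 table of FPKM values, which the authors deposited. The unit is read from the tools named. Per the submitters' processing notes, TopHat, Cufflinks and Cuffdiff were used with hg19. The sources used here give no versions, strand setting or other settings. An exact 0 can be a failed estimate. Loci are hg19, written 1-based, and gene types came from GENCODE 29 by identifier (95.8% of tested genes matched).

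Genes at 1 FPKM or more in at least 2 libraries were tested, 17994 in all, on log2(FPKM + 1). Limma 3.58.1 in R 4.3.3 fitted the 4 label and batch pairs as a block with a medium effect per label and a trended prior, leaving 2 residual and 2.8 prior degrees of freedom. P-values were two-sided, Benjamini-Hochberg adjusted across every tested gene, with a threshold of 0.05. The block was taken because the series text says that equal numbers mark the same batch. Deviations from group means correlated at 0.650 to 0.775 between same-numbered libraries. Nothing beyond the 2 batches is replicated, so p-values rest on 2 independent experiments. The steps were tested on simulated data.

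The members and lists were chosen with earlier results of these data known. The naming rule took all 10 members, ATF3, CDH1, EPCAM, ESRP1, the 5 genes most like VIM and most like ZEB1, and up to 3 genes per list by response and by batch 2 label difference. List genes past 2-fold and the markers PAX6, KDR, RPE65, OTX2, COL1A1, COL3A1, KRT5, KRT6A, KRT8, KRT14, KRT18, KRT19 and SFN were named after their values were seen. So were MITF, SERPINF1, LRAT, BEST1, PMEL, FAP, PDGFRB and COL1A2. The AP-1 sequence was likewise added later, as was TGACGTCA in the FN1 window. One matrix gene that the rule takes is not reported here. Endothelial markers were found for 4 of 5 symbols, and ITGB3, listed under several identifiers, was taken at the most abundant. Alternatives varied block, pseudocount, filter, gene types, scaling, prior and libraries.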

Additional observations from a re-analysis of the deposited data

Results flagged for a closer look

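Of the 10 genes, 6 had label differences of opposite sign in the 2 batches, each in both media. Over all tested genes, 8.27% were likewise higher under the label in batch 1 and lower in batch 2, and 11.3% the reverse. ZEB2, 1 of the 6, did not pass the filter and is not among the tested genes. The values are means over the media of log2(FPKM + 1), labelled knockout minus wild type. VIM stood at 0.44 in batch 1 and −2.48 in batch 2. SNAI2 had 0.45 and −1.54, ZEB1 0.41 and −1.37, and CDH2 0.59 and −0.999. For SPARC (0.28 and −0.72) and ZEB2 (0.61 and −0.35) the batch 2 values, and for ZEB2 all values, come from levels near or below 1 FPKM. The difference between batches was not tested.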

How the results depend on the processing

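None of the 9 tested members was called in any comparison under the 17 alternatives (SNAI1 was not tested with a filter at 5 FPKM), the lowest adjusted p being 0.136 (FN1, protein-coding genes only). Counts over all genes, 12 called in wild type, 5 under the knockout label, 23 averaged and 7 for the difference between labels, moved widely. In that order, they were 10, 3, 24 and 11 with a replicate block by batch only, and 9, 3, 1 and 3 with no replicate block. They were 2, 5, 1 and 4 with a pseudocount of 0.1, 0, 1, 0 and 0 with no filter on low values, and 12, 5, 51 and 10 with a filter at 5 FPKM. With protein-coding genes only they were 58, 16, 265 and 0, and with a prior without a trend 9, 5, 4 and 6. The cause of these shifts was not tested. Leaving out any 1 of the 8 libraries gave 0 to 1, 0 to 2, 0 to 1 and 0 to 1. Leaving out both libraries labelled knockout of batch 2, which was tried after seeing the data, gave 1, 0, 0 and 1.

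Averaged responses that crossed 0 were those of TWIST1 (0.23 with a pseudocount of 0.1, −0.124 to 0.0445 with 1 library left out and 0.0445 without both batch 2 libraries labelled knockout), SPARC (−0.0827 with that pseudocount, −0.1256 to 0.2328 with 1 library left out) and VIM (−0.0177 with equal medians, −0.0634 to 0.1895 with 1 library left out). With 1 library left out, the SNAI2 response in wild type ranged from −0.0626 to 0.4502, and that of CDH2 under the knockout label from −0.042 to 0.4804, with −0.042 without both batch 2 libraries so labelled. Leaving out either library of 1 pair also moved these averages by over 1.5 times: THY1 (main −0.32) to −0.0744 without the wild-type batch 1 pair, −0.1664 without the labelled-knockout batch 1 pair and −0.5686 without the wild-type batch 2 pair, SNAI1 (main 0.14) to 0.0191, 0.0722 and 0.2659 without the wild-type batch 1, labelled-knockout batch 2 and wild-type batch 2 pairs, CDH2 (main 0.32) to 0.1903 without the labelled-knockout batch 2 pair, and SNAI2 (main 0.38) to 0.251 without the wild-type batch 2 pair. A pseudocount of 0.1 gave −0.1188 for THY1 and 0.0596 for SNAI1. FN1 stayed between 0.25 and 0.42 and ZEB1 between 0.21 and 0.33. The 3 members at least 2-fold lower in batch 2 numbered 3 also with equal medians and with a pseudocount of 0.1. With a pseudocount of 0.1, 1 member was at least 2-fold higher in both media of batch 1 and 1 of batch 2, against 0 and 0. These are ZEB2 and SNAI1, at levels near or under 1 FPKM. Depth is unknown, which limits ZEB2, SNAI1, and TWIST1, SPARC and THY1 in their low batch.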
